A study of Mus musculus with 6 samples.

Results

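The 10 genes described here encode plasma carrier proteins and their relatives that hepatocytes secrete: Alb, Gc, Ttr, Rbp4, Ahsg, Fetub, Ambp, Itih1, Itih3 and Itih4. They were chosen by name from a table of 16603 gene symbols, and all 10 were in the table and passed the filter on low counts, with at least 6968 counts in any library. Bulk RNA-seq of mouse liver gave 6 libraries, 3 with the genotype label WT (wild-type) and 3 with the label Mdr2 knockout. Abcb4 is the gene symbol for Mdr2, a phosphatidylcholine transporter of the hepatocyte's bile-facing membrane, whose loss leaves bile harmful to the ducts. No age, sex, strain, allele or pooling of animals is stated. Whether replicates were different mice is not stated either, and p-values therefore refer to the spread among these libraries, part or all of which may be technical.

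Hepatocytes make most of the carrier proteins of plasma and release them constantly. Albumin, from Alb, carries fatty acids, bilirubin and hormones and holds water in the vessels, and its relative Gc carries vitamin D and free actin. Transthyretin, from Ttr, carries thyroid hormone and binds the retinol carrier Rbp4, which keeps the small Rbp4 protein from being lost in the kidney. Ahsg and Fetub encode the fetuins, proteins of the cystatin superfamily, of which Ahsg keeps calcium phosphate in solution. Ambp encodes a precursor that is cut into the small carrier alpha-1-microglobulin and the protease inhibitor bikunin, and bikunin is joined to the heavy chains made by the Itih genes. Those complexes hand their heavy chains to hyaluronan in the extracellular matrix.

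Abcb4 was counted in every library, at higher levels under the Mdr2 knockout label. Its level was 329.9, 369 and 273 CPM (counts per 1000000, scaled by the TMM method, which sets libraries against each other on the bulk of their genes) in labelled wild-type replicates 1, 2 and 3, and 499.6, 513 and 434 CPM in labelled knockout replicates 1, 2 and 3. The log2 fold change of Abcb4 was 0.57 (SE 0.12, edgeR adjusted p = 0.00389). The count covers the whole gene, at chromosome 5 from 8893717 to 8959231 (GRCm38), and since no label describes the deleted part, it cannot check the genotype. Groups are therefore named by their labels throughout.

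Promoter sequences of 4 members are shown because these genes form 2 pairs of relatives with unequal estimated changes: Alb and Gc of the albumin family, and the neighbouring fetuin genes Ahsg and Fetub. The pairs were picked for that difference, and any part of the promoters in it was not tested. Each is the 250 bases before a start of transcription listed by RefSeq (GRCm38.p6), read 5′ to 3′ on the gene's strand. Capitals mark matches on either strand to 4 short motifs: TTGCNNAA (C/EBP type), TGTTTNC (FOXA type), CCAAT and TATAAA. No 2 matches overlapped in these windows. The windows lie at chr5:90460620-90460869 on the plus strand for Alb, chr5:89457899-89458148 on the minus strand for Gc, chr16:22891765-22892014 on the plus strand for Ahsg and chr16:22918132-22918381 on the plus strand for Fetub. The GENCODE annotation, used for all gene coordinates here, places some starts elsewhere. It begins Ahsg at 22891277, so the whole Ahsg window lies inside the gene as annotated there. It begins Fetub at 22918334, so the end of that window lies inside the gene.
Alb: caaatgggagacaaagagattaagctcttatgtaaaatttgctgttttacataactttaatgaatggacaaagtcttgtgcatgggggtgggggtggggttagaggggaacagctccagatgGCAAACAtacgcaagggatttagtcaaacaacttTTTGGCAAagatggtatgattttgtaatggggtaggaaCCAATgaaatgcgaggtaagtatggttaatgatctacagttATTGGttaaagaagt
Gc: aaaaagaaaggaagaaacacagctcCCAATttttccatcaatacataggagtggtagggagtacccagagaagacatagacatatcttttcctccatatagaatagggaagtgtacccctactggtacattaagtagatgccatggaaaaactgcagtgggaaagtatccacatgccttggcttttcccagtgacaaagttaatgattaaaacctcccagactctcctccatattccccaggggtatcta
Ahsg: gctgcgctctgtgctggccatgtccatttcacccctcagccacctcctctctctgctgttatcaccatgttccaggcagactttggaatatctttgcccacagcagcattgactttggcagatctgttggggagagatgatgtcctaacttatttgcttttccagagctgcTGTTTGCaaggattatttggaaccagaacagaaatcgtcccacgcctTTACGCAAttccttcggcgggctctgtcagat
Fetub: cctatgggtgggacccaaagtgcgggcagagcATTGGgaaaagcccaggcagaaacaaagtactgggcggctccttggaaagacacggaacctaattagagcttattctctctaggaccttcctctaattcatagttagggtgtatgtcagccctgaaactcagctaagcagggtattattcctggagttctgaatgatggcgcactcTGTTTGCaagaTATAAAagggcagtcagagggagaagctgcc

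Promoter windows of 9 members were searched, and shares are given over 32851 windows of that length. The C/EBP-type letters were in the windows of Alb and Ahsg (9.56% of all windows), and the FOXA-type letters in those of Alb, Ahsg, Fetub, Ambp, Itih3 and Rbp4 (17.8% of all windows). CCAAT stood in 5 of the 9 windows, against 33.8% of all. TATAAA stood in that of Fetub alone, 31 bases before the start listed by RefSeq, against 12.4% of all. By the GENCODE annotation the window of Ambp, like that of Ahsg, lies inside its gene, and that of Itih3 partly does. A match is a description of the letters and no measure of binding.

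Alb, Ttr, Rbp4 and Fetub fell in the libraries labelled Mdr2 knockout under both scalings, and the calls on the other 6 members differed with the scaling or were not made. With TMM scaling, 6 of the 10 fell at an adjusted p under 0.05 (edgeR's quasi-likelihood test), 0 rose and 4 did not pass, against 37.1% of all 12612 tested genes called in either direction, 16.3% as lower and 20.9% as higher. Alb, Ttr, Rbp4, Ahsg, Fetub and Itih1 fell, and Gc, Ambp, Itih3 and Itih4 did not pass. By overlap, 7 members (these 6 and Itih4) had every labelled knockout library below every labelled wild-type library, against 23.7% of tested genes (51.3% separated in either direction). The median log2 fold change was -0.51 over the 10 members and 0.01 over all tested genes. Of 122 tested genes with a mean of at least 1000 CPM, 77 fell and 5 rose with TMM, with a median of -0.38. With total counts 27 of them fell and 16 rose. All members except Fetub and Itih1 are among these 122 genes.

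The second scaling asked for, by the total count of each library, gave smaller decreases. It treats each count as a share of all counts, and over all tested genes it moved the median from 0.01 to 0.30. Under it 4 members fell, Alb, Ttr, Rbp4 and Fetub, while 0 rose and 6 did not pass. Over all tested genes 49.6% were called, 2.62% as lower and 47% as higher, so 94.7% of calls were increases with total counts against 56.2% with TMM. By overlap, 5 members (these 4 and Ahsg) lay wholly lower, against 4.35% of tested genes, and Gc lay wholly higher (59.8% of tested genes were separated in either direction). The median of the 10 members was -0.22 with total counts, against 0.30 for all tested genes and -0.09 for the 122 abundant genes. The TMM factors ranged from 0.889 to 0.92 for the labelled wild-type and from 1.099 to 1.113 for the labelled knockout libraries. Factors computed with the 10 members taken out gave the same 6 decreases in edgeR, with log2 fold changes of -0.79 for Alb and -0.83 for Ttr.

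**Figure D1:**
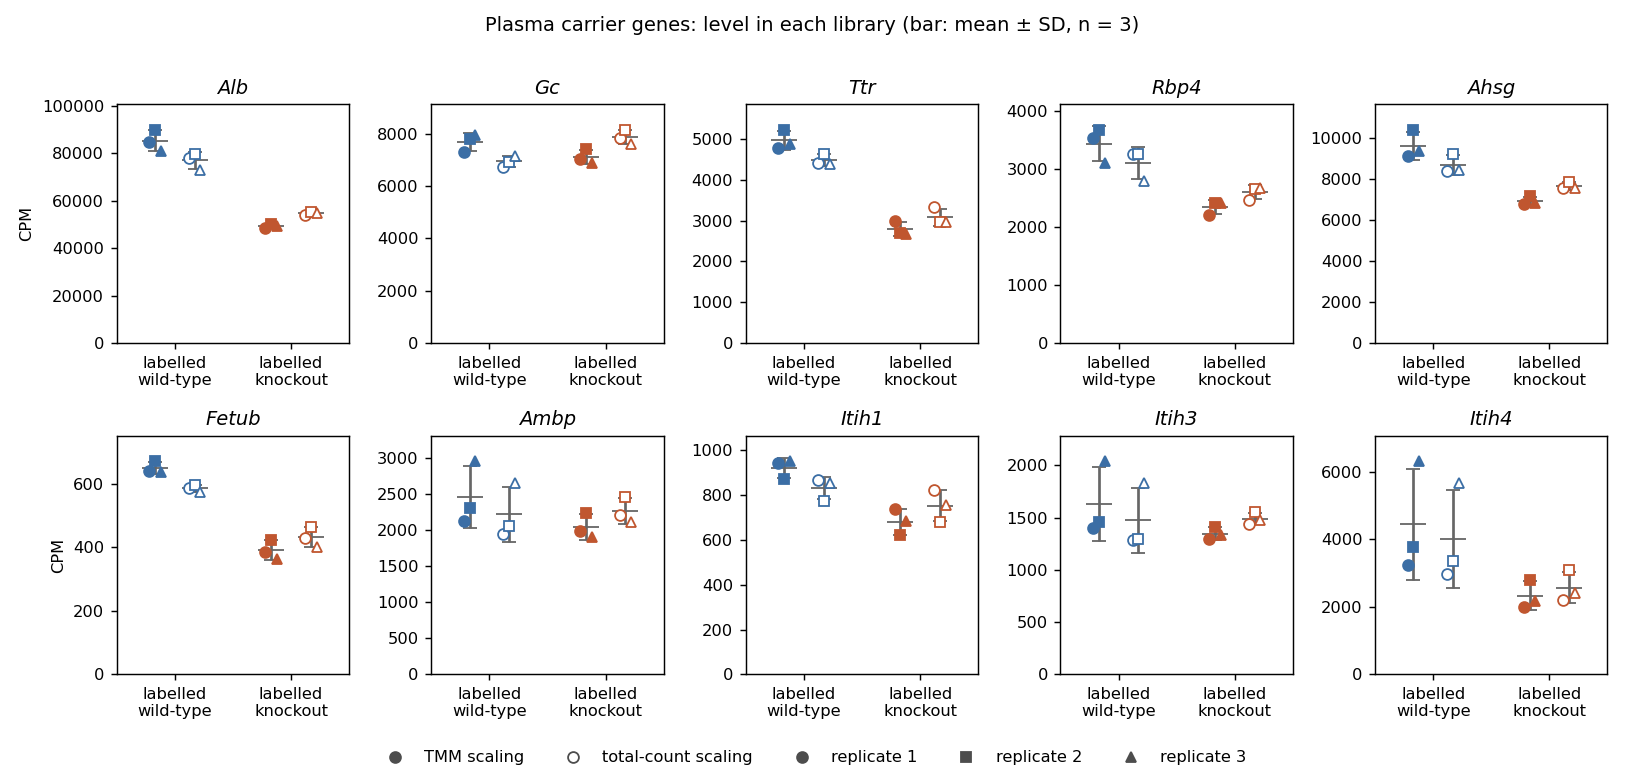
Level of each of the 10 genes in CPM (linear axis from 0) in the 6 libraries, with filled symbols for TMM scaling and open symbols for total-count scaling. Bars give mean ± SD over 3 libraries of a labelled group, and the labelled wild-type replicate 3 (blue triangle) lies highest for Itih4, Itih3 and Ambp.

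Together the 10 genes took 10.9%, 11.2% and 10.8% of all counts in labelled wild-type replicates 1, 2 and 3, and 8.24%, 8.52% and 8.28% in labelled knockout replicates 1, 2 and 3. The groups did not overlap, and the mean went from 10.9% ± 0.24 to 8.35% ± 0.149 (SD, n = 3 each), a difference of -2.60 percentage points (exact permutation test over samples, 2-sided, p = 0.1, the smallest that 3 against 3 can give). Counting error is far smaller, with Wilson 95% intervals of at most ± 0.0148 percentage points, which cover counting error only. Alb made up most of the difference: it took 7.82%, 7.99% and 7.31% of counts against 5.41%, 5.53% and 5.48%, a difference of -2.24 points. The other 9 genes took 3.23% ± 0.198 against 2.87% ± 0.102, a difference of -0.36 points (exact permutation p = 0.1 for each).

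Alb, on chromosome 5 from 90460897 to 90476602, was the gene with the highest FPKM (counts per length of gene and library total, as the authors deposited them) in each of the 6 libraries. Its TMM-scaled level was 85026, 89905 and 81231 CPM in the labelled wild-type and 48643, 50337 and 49422 CPM in the labelled knockout libraries. Every labelled knockout library lay below every labelled wild-type library, and the labelled knockout libraries differed little among themselves. Alb fell with TMM scaling (-0.79 on the log2 scale, SE 0.08, adjusted p = 5.46e-05 by edgeR, 1.73-fold lower) and with total counts (-0.49, SE 0.07, adjusted p = 0.000322, 1.41-fold lower). Alb fell in each of the 15 alternative fits as well.

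Gc, the vitamin D carrier of the same family, at chromosome 5 from 89417522 to 89457898, did not follow Alb. It stood at 7298, 7799 and 7958 CPM in the labelled wild-type and 7044, 7416 and 6871 CPM in the labelled knockout libraries with TMM scaling, and the groups overlapped. With total counts the levels were 6713, 6935 and 7164 CPM against 7835, 8141 and 7618 CPM, and here every labelled knockout library lay above every labelled wild-type library. The log2 fold change of Gc was -0.11 (SE 0.08, edgeR adjusted p = 0.293) with TMM and 0.18 (SE 0.08, edgeR adjusted p = 0.0726) with total counts, and its direction depended on the scaling. The ratio of Alb to Gc counts within a library needs no scaling: it was 11.7, 11.5 and 10.2 in the labelled wild-type and 6.91, 6.79 and 7.19 in the labelled knockout libraries. The groups stood far apart on this ratio, by -0.67 on the log2 scale (exact permutation p = 0.1; adjusted p = 0.171 over the 12 pairs compared).

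The other albumin family genes lie just beyond Alb on chromosome 5. Afm, which encodes afamin, a vitamin E carrier, at 90518932 to 90553543, fell with both scalings, from 174 ± 17.8 to 98.6 ± 11.4 CPM with TMM (-0.82 on the log2 scale, SE 0.10, adjusted p = 0.00026 by edgeR) and by 0.53 on the log2 scale with total counts (edgeR adjusted p = 0.00257). Afp, the fetal albumin-like protein, between Alb and Afm at 90490737 to 90508907, rose from 0.318 ± 0.192 to 1.42 ± 0.245 CPM (2.13 on the log2 scale, SE 0.44, adjusted p = 0.0042 by edgeR). Afp thus rose at a very low level beside Alb and Afm, which fell.

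Ttr and Rbp4, partners in plasma, both fell but not equally. Ttr, on chromosome 18 from 20665280 to 20674321, stood at 4795, 5225 and 4885 CPM in the labelled wild-type and 2989.9, 2704 and 2669 CPM in the labelled knockout libraries. The groups of Ttr were well apart, and it fell by 0.83 on the log2 scale with TMM (SE 0.09, edgeR adjusted p = 8e-05) and by 0.54 with total counts (SE 0.08, adjusted p = 0.000514). Rbp4, on chromosome 19 from 38116629 to 38125281, stood at 3543, 3679 and 3102 CPM against 2216, 2422 and 2419 CPM, and its groups did not overlap either. Its log2 fold change was -0.55 (SE 0.09, edgeR adjusted p = 0.00138) with TMM and -0.26 (SE 0.09, adjusted p = 0.0385) with total counts.

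Counts of Rbp4 per count of Ttr were 0.739, 0.704 and 0.635 in the labelled wild-type and 0.741, 0.895 and 0.906 in the labelled knockout libraries. All 3 labelled knockout values were above the others, though replicate 1 only just, with a difference of 0.29 on the log2 scale (exact permutation p = 0.1; adjusted p = 0.171). The ratio of Ttr to Alb moved by -0.05 on the log2 scale with overlapping groups (exact permutation p = 0.6), and the ratios of Rbp4 and Ahsg to Alb moved by 0.24 and 0.31 without overlap. So Rbp4 and Ahsg held a larger number of counts per Alb count in each labelled knockout library, and Ttr did not.

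Ahsg and Fetub lie next to each other on chromosome 16, from 22891277 to 22899449 and from 22918334 to 22939778. Ahsg was the second most abundant member per length, and stood at 9125, 10413 and 9386 CPM in the labelled wild-type and 6811, 7183 and 6827 CPM in the labelled knockout libraries. It fell with TMM (log2 fold change -0.47, SE 0.08, edgeR adjusted p = 0.00177). With total counts Ahsg did not pass (-0.18, SE 0.08, adjusted p = 0.0799), although its groups still did not overlap. Gm30505, an annotated antisense gene, overlaps Ahsg and is not among the counted symbols, and the strand setting of the counting is not given in the sources used here.

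Fetub was far less abundant, at 639, 670.1 and 638 CPM in the labelled wild-type and 387, 423 and 362 CPM in the labelled knockout libraries, with groups well apart. It fell by 0.73 on the log2 scale with TMM (SE 0.09, edgeR adjusted p = 0.000172) and by 0.44 with total counts (SE 0.09, adjusted p = 0.00186). The ratio of Ahsg to Fetub counts was 14.3, 15.5 and 14.7 in the labelled wild-type and 17.6, 16.96 and 18.9 in the labelled knockout libraries, a difference of 0.26 on the log2 scale with no overlap (exact permutation p = 0.1; adjusted p = 0.171). Of the fetuin pair, Fetub thus lost more counts than Ahsg in relation to its own level.

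Their relatives in the same cluster, Hrg (histidine-rich glycoprotein) and the kininogen genes Kng1 and Kng2, all fell with TMM scaling, 3 of 3. Hrg went from 1632 ± 50.8 to 1213 ± 29.3 CPM (-0.43 on the log2 scale, SE 0.08, adjusted p = 0.00212 by edgeR), Kng1 from 2035 ± 121 to 1466 ± 65.3 CPM and Kng2 from 268 ± 23.7 to 209.5 ± 20.1 CPM. With total counts 0 of the 3 passed, with log2 fold changes of -0.13, -0.18 and -0.06 (edgeR; with the total counts but without labelled wild-type replicate 3, again 0 passed). Reads of Kng1 and Kng2, close paralogs, could be split or lost by the counting.

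**Figure D2:**
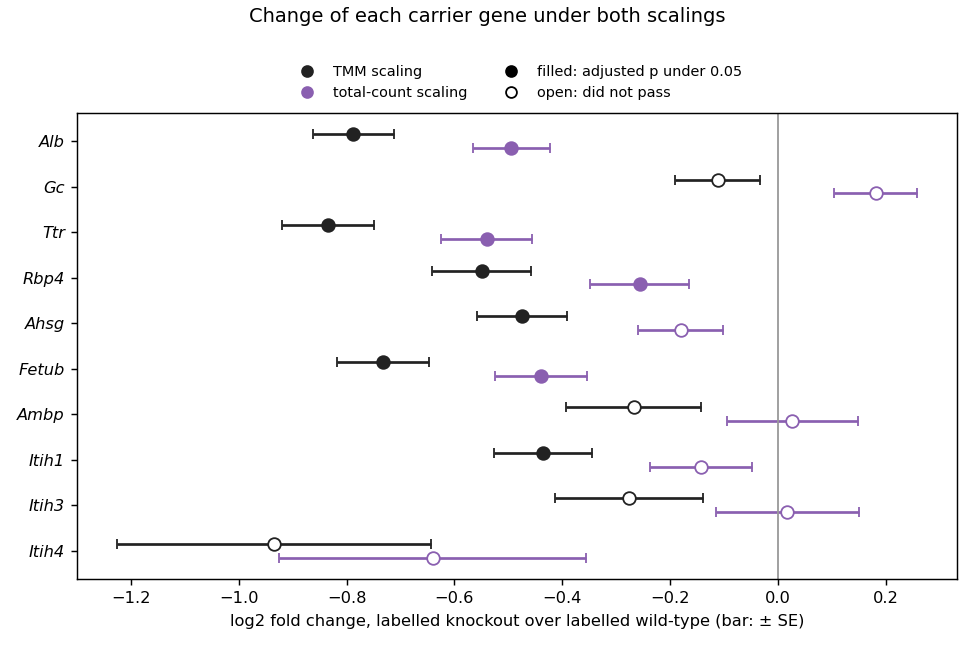
Log2 fold change of each gene, labelled knockout over labelled wild-type, with its SE, under TMM scaling (black) and total-count scaling (violet). Filled points have an adjusted p under 0.05, 6 genes with TMM and 4 with total counts, and Gc, Ambp and Itih3 lie above 0 with total counts.

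For Ambp, Itih3 and Itih4, labelled wild-type replicate 3 stood well above the other wild-type libraries, at 1.33, 1.43 and 1.80 times their mean. For Itih1 it was the highest by little, at 1.05 times. Ambp, on chromosome 4 from 63143275 to 63154799, stood at 2123, 2308 and 2951 CPM in the labelled wild-type and 1983, 2243 and 1907 CPM in the labelled knockout libraries, and the groups overlapped. It did not pass with TMM (log2 fold change -0.27, SE 0.13, edgeR adjusted p = 0.118) or with total counts (0.03, SE 0.12, adjusted p = 0.872). Without labelled wild-type replicate 3 the log2 fold change of Ambp was -0.13 with TMM and 0.18 with total counts, and neither passed (edgeR adjusted p = 0.35 and 0.155).

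Itih1, Itih3 and Itih4 lie side by side on chromosome 14, from 30929180 to 30943289, 30908572 to 30923760 and 30886476 to 30902353. Itih1 stood at 943, 871 and 951 CPM in the labelled wild-type and 739, 622 and 683 CPM in the labelled knockout libraries, without overlap. It fell with TMM (log2 fold change -0.44, SE 0.09, edgeR adjusted p = 0.00428). With total counts its groups overlapped and Itih1 did not pass (-0.14, SE 0.10, adjusted p = 0.233).

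Itih3 stood at 1401, 1458 and 2037 CPM in the labelled wild-type and 1296, 1411 and 1335 CPM in the labelled knockout libraries. Its groups overlapped, and labelled wild-type replicate 3 alone was much higher than the rest. The log2 fold change of Itih3 was -0.28 (SE 0.14, edgeR adjusted p = 0.14) with TMM and 0.02 (SE 0.13, adjusted p = 0.924) with total counts. Without labelled wild-type replicate 3 these values were -0.10 and 0.21 (edgeR adjusted p = 0.424 and 0.0764), so the sign of Itih3 depends on the scaling.

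Itih4, whose protein carries no bikunin, had the lowest estimate and the widest error. It stood at 3238, 3776 and 6302 CPM in the labelled wild-type and 1988, 2808 and 2173 CPM in the labelled knockout libraries. The groups did not overlap, but the labelled wild-type libraries spread over a wide range (4439 ± 1636 CPM, SD, n = 3, against 2323 ± 430.3). For Itih4 the log2 fold change was -0.93 (SE 0.29, edgeR adjusted p = 0.0541) with TMM and -0.64 (SE 0.28, adjusted p = 0.115) with total counts, and passed with neither. It passed by DESeq2 with that tool's own size factors (adjusted p = 0.021), by limma-voom with TMM (adjusted p = 0.0176), and in edgeR with TMM without labelled wild-type replicate 1 (-1.13, adjusted p = 0.0252) or 3 (-0.61, adjusted p = 0.0161). With total counts and without replicate 3 it did not pass (-0.30, adjusted p = 0.1).

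Within libraries, Ambp and Itih3 kept a nearly constant ratio, 1.45 to 1.58 against 1.43 to 1.59 under the knockout label, a difference of -0.00014 on the log2 scale with SDs of 0.06 and 0.08. Itih4 moved away from both. Counts of Itih3 per count of Itih4 were 0.433, 0.386 and 0.323 in the labelled wild-type and 0.652, 0.503 and 0.614 in the labelled knockout libraries, without overlap (difference 0.63 on the log2 scale, exact permutation p = 0.1; adjusted p = 0.171). Ambp per Itih4 moved by 0.63 as well, and by 0.49 without labelled wild-type replicate 3. The ratio of Ambp to Itih1 and those of Itih1 to Itih3 and Itih4 overlapped between the groups, with differences of 0.18, -0.18 and 0.45 on the log2 scale. Without labelled wild-type replicate 3 these were 0.30, -0.33 and 0.19, and the ratios of Itih1 with Ambp and with Itih3 no longer overlapped. Of the 12 pairs compared, 7 did not overlap (9 without that library, where fewer libraries separate more easily). Several pairs share a gene, and the share over other gene pairs was not computed. Of single tested genes, 51.3% separated in either direction with TMM and 59.8% with total counts. With 3 against 3 libraries, no exact permutation p can be under 0.1.

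**Figure D3:**
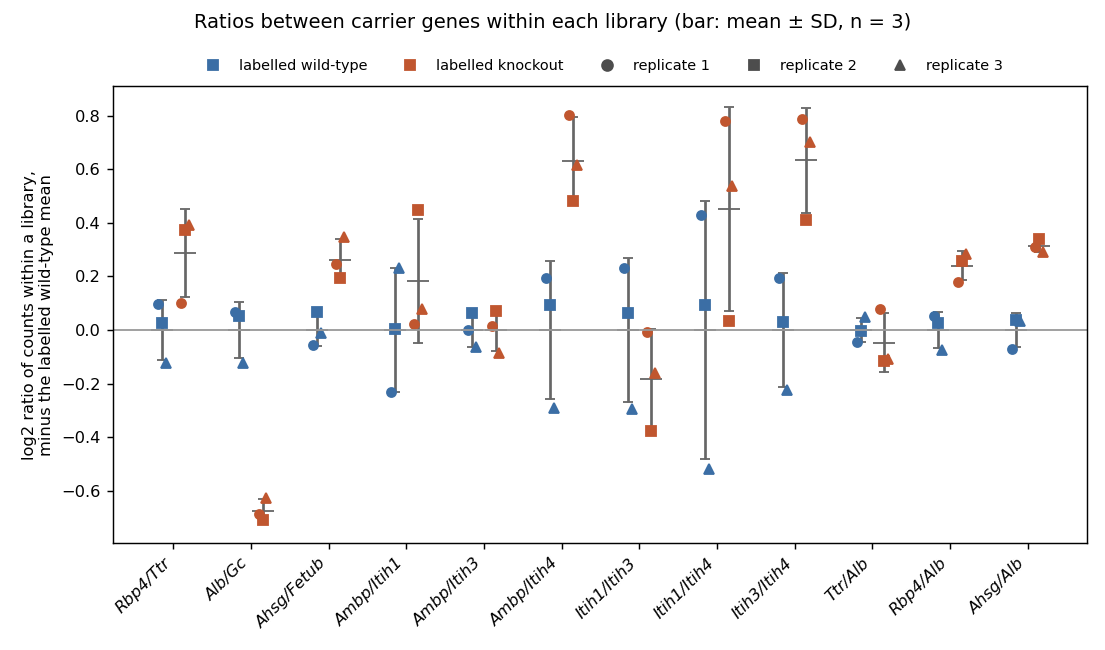
Log2 ratio of the counts of 2 genes in the same library, minus the labelled wild-type mean of that pair, for 12 pairs; these ratios do not depend on the scaling. Bars give mean ± SD over 3 libraries, and Alb/Gc lies lowest in the labelled knockout libraries, while Ambp/Itih3 stays near 0 in all 6.

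The library that stood apart for Itih4, Itih3 and Ambp also did so for other genes. Labelled wild-type replicate 3 was 1.80 times the mean of the other 2 labelled wild-type libraries for Itih4, 1.43 times for Itih3 and 1.33 times for Ambp, and 0.929, 0.975 and 1.05 times for Alb, Ttr and Itih1. Among acute-phase plasma proteins it was 2.05 times for Hpx (hemopexin), 1.46 times for Hp (haptoglobin) and 2.15 times for Orm1 (orosomucoid). For Orm2, at 8.9, 10.5 and 49 CPM in labelled wild-type replicates 1, 2 and 3, it was 5.04 times. For Cp (ceruloplasmin) it did not stand apart, with 1942, 2198 and 2032 CPM in labelled wild-type replicates 1, 2 and 3. The red cell genes Hba-a1 and Hbb-bs were 4.19 and 3.79 times as high in replicate 3, and the 6 red cell markers summed to 482 CPM there against 206 to 238 CPM in the other 5 libraries. Among the labelled knockout libraries, replicate 2 was the highest for Itih4, at 1.35 times the mean of the other 2, and for Hpx, at 1.55 times. The part of these differences in the results on Itih4, Itih3 and Ambp was not tested, and their values without that library are given above.

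**Figure D4:**
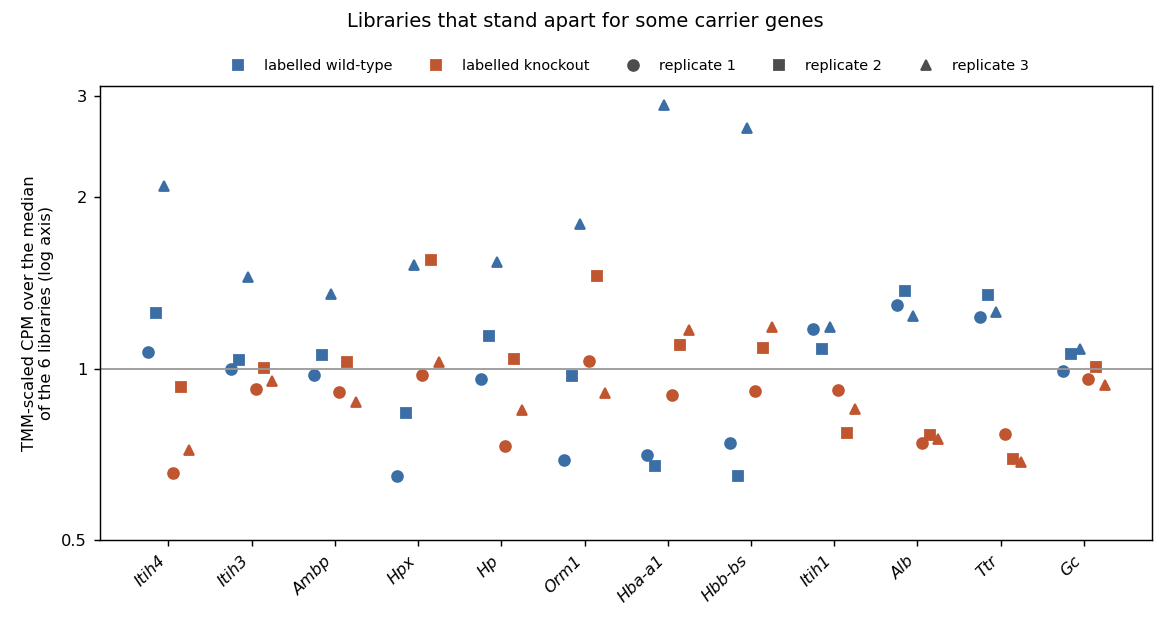
TMM-scaled CPM of each gene in each library over the median of the 6 libraries (log axis), with a symbol for each replicate number. Labelled wild-type replicate 3 (blue triangle) stands highest for Itih4, Itih3, Ambp, Hp and Orm1 and for the globin genes Hba-a1 and Hbb-bs, but not for Alb or Ttr.

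The order of the members' levels per length was nearly the same in both groups. By the deposited FPKM in the labelled wild-type libraries it was Alb (37406 ± 1720.25), Ahsg (5875 ± 327), Gc (3829 ± 124), Ttr (3403 ± 106), Rbp4 (2396 ± 211), Ambp (1752 ± 300.4), Itih4 (1265 ± 461), Itih3 (483 ± 103), Fetub (328 ± 6.1) and Itih1 (269.8 ± 16.3). Of neighbours in this order, only Ambp and Itih4 overlapped over their 3 libraries. In the labelled knockout libraries Itih1 (244 ± 22.5) and Fetub (242 ± 17.8) came in the other order and overlapped, as did Rbp4 (2006 ± 92.2) and Ambp (1784 ± 143). Gc and Ttr drew apart: Gc was at 4340 ± 145 FPKM and Ttr at 2340.4 ± 158 FPKM.

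The other carrier genes of plasma gave a mixed picture. For this and the other gene lists, the shares over all tested genes were 16.3% lower and 20.9% higher with TMM. With total counts they were 2.62% lower and 47% higher. Of 18 symbols listed, 16 were in the table and 15 were tested. Transferrin was listed under a symbol other than its mouse symbol, Trf, and is not in these counts; Trf did not pass (-0.25 with TMM, edgeR adjusted p = 0.0594, and 0.05 with total counts, adjusted p = 0.675). Of the 15, with TMM 7 fell, 1 rose and 7 did not pass (median log2 fold change -0.31); with total counts 5 fell and 2 rose (median -0.02). Serpina6, the corticosteroid carrier, fell furthest, from 104 ± 4.65 to 42.2 ± 1.22 CPM (-1.30 on the log2 scale, SE 0.07, adjusted p = 1.8e-06 by edgeR), and by 1.01 on the log2 scale with total counts. Apoh fell from 2696 ± 95.3 to 1899.6 ± 23.4 CPM, with log2 fold changes of -0.51 and -0.21 under the 2 scalings, both past the threshold. Afm, Igfals, Apom, Selenop and Azgp1 were the other genes that fell with TMM, and Selenop and Azgp1 did not pass with total counts. Hpx, Hp, Cp, Orm1, Orm2, Orm3 and Serpina7 did not pass with TMM, with log2 fold changes from -0.55 for Orm3 to 1.89 for Orm2.

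Other genes of the hyaluronan and heavy chain system changed in both directions. Of 14 listed genes 8 were tested, and 4 rose, 1 fell and 3 did not pass with TMM, and 5 rose and 0 fell with total counts. With TMM 2 rose without labelled wild-type replicate 1 or 2 or labelled knockout replicate 1, and 2 fell without labelled wild-type replicate 1 or labelled knockout replicate 3 and 0 without labelled knockout replicate 1. Itih5, a heavy chain gene expressed outside hepatocytes as well, rose from 20.8 ± 3.3 to 91.6 ± 11.7 CPM (2.14 on the log2 scale, SE 0.13, adjusted p = 1.15e-05 by edgeR), and the hyaluronan receptor gene Cd44 from 7.17 ± 2.77 to 20.4 ± 3.7 CPM. Itih2, the other heavy chain gene of hepatocytes, on chromosome 2 from 10094593 to 10131396, stood at 1251, 1183 and 1280.2 CPM against 1266, 1110.3 and 1222 CPM and did not pass with TMM (-0.05, SE 0.08, edgeR adjusted p = 0.705), but rose with total counts (0.25, adjusted p = 0.0402). Stab2, a hyaluronan clearance receptor that is also among the endothelial markers, rose slightly (0.29, edgeR adjusted p = 0.0237), and Hyal1, a hyaluronidase gene, fell with TMM only (-0.47, edgeR adjusted p = 0.0137).

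Genes that handle the cargo of these carriers were measured too, and the lists are short. Over all tested genes 16.3% fell and 20.9% rose with TMM, and 2.62% fell and 47% rose with total counts. For retinol, 5 of 12 tested genes fell and 2 rose with TMM (1 and 5 with total counts; 3 fell without labelled wild-type replicate 2): Cyp26a1, which degrades retinoic acid, fell from 30.8 ± 7.14 to 16.9 ± 1.31 CPM. For thyroid hormone, 2 of 6 fell and 0 rose (0 and 1 with total counts; 1 rose without labelled knockout replicate 2), Thrb (-0.63) and Slc16a10 (-0.45). For vitamin D, Cyp27a1, which oxidises sterols and vitamin D, fell with both scalings (-0.62 and -0.33), and Cyp2r1 did not pass. Among receptors for plasma proteins, Fcgrt, which encodes the receptor that recycles albumin, fell from 165 ± 2.19 to 123 ± 5.68 CPM with TMM (-0.43, edgeR adjusted p = 0.00113) and did not pass with total counts (-0.13); in all 3 of 7 fell and 2 rose (0 and 4 with total counts).

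In the secretory pathway, through which these proteins leave the cell, 3 of 20 genes fell with TMM, near the 16.3% of all tested genes. With total counts 0 fell and 12 rose, where 47% of all tested genes rose. With TMM 0 rose, or 1 without labelled wild-type replicate 1 or labelled knockout replicate 2. Sar1b, which helps form transport vesicles at the endoplasmic reticulum, had the lowest p of that list (-0.46, edgeR adjusted p = 0.00145). Of 11 transcription factors of hepatocytes, 4 fell and 0 rose with TMM and 1 fell with total counts. Hnf4a stood at 1281 ± 171 and 844 ± 113 CPM (-0.60, edgeR adjusted p = 0.00441), and Foxa3, Nr5a2 and Cebpa had log2 fold changes of -0.64, -0.50 and -0.53.

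Markers of some other cell types rose with the knockout label in the same libraries, while the summed levels of endothelial and of red cell markers overlapped between the groups. All 10 cholangiocyte markers rose with both scalings, with Cftr at 0 counts in 2 labelled wild-type libraries and Cldn4 in 1. Their summed level ranged over 58.0 to 78.6 CPM with the wild-type label against 366 to 397 CPM with the knockout label. Spp1 alone gave a large part of that sum, at 34.3, 45.6 and 28.5 CPM in the labelled wild-type and 310, 272 and 297 CPM in the labelled knockout libraries. Of 10 stellate cell and fibroblast markers 7 rose and 0 fell (244 to 374 against 581 to 712 CPM), and of 10 monocyte and macrophage markers 7 rose and 0 fell (251 to 449.7 against 559 to 638 CPM). With total counts 8 rose and 0 fell in each of these 2 lists. Of 10 endothelial markers 3 rose and 3 fell with TMM, and 5 rose and 1 fell with total counts (264 to 304 against 273 to 288 CPM), and with TMM 1 rose without labelled wild-type replicate 2 or labelled knockout replicate 1. Of 4 tested lymphocyte markers (10 listed) 1 rose and 0 fell (3.81 to 6.44 against 6.9 to 9.72 CPM), and of 5 tested red cell markers 0 rose and 1 fell (2 rose and 0 fell without labelled wild-type replicate 3, and 0 fell without labelled knockout replicate 3). With total counts 2 lymphocyte and 0 red cell markers rose, and 0 of either fell. The part of these cells in the members' changes was not tested. In bulk tissue, fewer hepatocytes and less of an RNA per hepatocyte cannot be told apart.

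Enzymes typical of hepatocytes gave a reference within the same libraries. Of 12 such markers, all present, 7 fell and 0 rose with TMM, and 1 fell and 2 rose with total counts. They did not move alike. Hpd fell with TMM (-0.76, edgeR adjusted p = 0.000122) and with total counts (-0.46, adjusted p = 0.00113), close to Alb at -0.79 and -0.49. Cps1 (0.05) and Ass1 (0.06) did not pass with TMM and were the 2 that rose with total counts. Without labelled wild-type replicate 2, 3 fell, and without labelled knockout replicate 1 or 2, 4 fell. As a share of all counts the 12 took 2.97% to 3.04% with the wild-type label against 2.73% to 3.10% with the knockout label, with overlap. Counts of Alb per count of these markers, a ratio chosen after the values were seen, were 2.62, 2.63 and 2.46 in the labelled wild-type and 1.98, 1.79 and 1.77 in the labelled knockout libraries. The same ratio for Gc was 0.225, 0.228 and 0.241 against 0.287, 0.264 and 0.245. Measured against the summed counts of these 12 enzymes, Alb was lower and Gc higher in each labelled knockout library (exact permutation p = 0.1 for each). The sum pools enzymes that moved unequally, and ratios to single enzymes were not tested.

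The genes whose TMM-scaled levels most resembled the mean pattern of the 10 members over the 6 libraries were Cd302 (Pearson r = 0.998), Serpina1e (0.996), Gm4788 (0.994), Hpn (0.993) and Retreg2 (0.990), among 1386 other tested genes with a mean of at least 100 CPM. The points are 6 libraries in 2 groups that share scaling factors, so these values describe likeness only. Serpina1e went from 15601 ± 2506 to 6810 ± 514 CPM (-1.20 on the log2 scale, SE 0.12, adjusted p = 6.89e-05 by edgeR), and its close paralogs leave that count uncertain. Cd302 had a log2 fold change of -0.61, and Hpn, a serine protease gene, of -0.29.

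For the series as a whole, libraries held 17100393 to 18124467 counts and 14277 to 15152 genes with a count. Replicates were not repeats of 1 library: their counts gave a chi-square of 16.0 or more per degree of freedom within groups.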

How the data were processed

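For 6 liver libraries the authors deposited raw counts of reads for each gene symbol, and FPKM (counts per length and library total) of those genes. The build mm10 and the tools Bowtie2, Cufflinks, DESeq, HISAT2, HTSeq, SAMtools, StringTie and Trimmomatic are named per the submitters' processing notes, with no role. Versions, annotation and strandedness were not given in the sources used. FPKM as deposited were proportional to count over library total within each of 9243 genes, so they are the same reads. Columns marked M were read as Mdr2 knockout because M begins those titles, and N as WT by elimination. Every direction rests on that reading.

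Counts were tested with edgeR 4.0.16 (R 4.3.3): filterByExpr defaults (minimum count 10, minimum total 15), TMM or total-count scaling, a robust quasi-likelihood fit with group as the only term, and Benjamini-Hochberg adjustment over 12612 genes, threshold 0.05. Adjusted p-values without a tool's name come from it, and positive log2 fold changes mean higher in the labelled knockout. The SE is the absolute log2 fold change over the square root of F. CPM are counts per 1000000 of the scaled library size, as mean ± SD. Shares and ratios used exact permutation tests over samples (SciPy 1.17.1). The pipeline was tested on simulated data in which increases and decreases were drawn at random, so that test does not bear on the choice of scaling. DESeq2 1.42.0 and limma-voom (limma 3.58.1) were alternatives. Coordinates are from GENCODE M21 (GRCm38). Promoters were matched by symbol for 9 members, using the listed start nearest the annotated one.

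Named genes were Abcb4, the members, up to 4 genes of each of 16 related lists with the smallest p (any tested gene for carriers, fetuin relatives and hyaluronan partners) and the 5 genes most like the members. Cps1, Ass1, Hbb-bs, Spp1 and Trf fall outside that rule and were chosen after their values were seen. Members and lists were chosen with earlier results of these data known.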

Additional observations from a re-analysis of the deposited data

How the results depend on the processing

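Each member was refitted under 15 alternatives: RLE, upper-quartile and total-count scaling, TMM without the members, DESeq2, limma-voom, no low-count filter, a replicate block, 5 libraries in each of 6 ways and, chosen after seeing the data, total counts without labelled wild-type replicate 3. Of 150 values, 136 kept their direction and their side of the threshold. Members that fell numbered 4 with total counts (with or without that library), 7 with DESeq2, with limma-voom and in the fits that left out labelled wild-type replicate 1 or 3, and 6 in each other fit; 0 rose in any. With total counts Gc, Ambp and Itih3 turned positive, at 0.18, 0.026 and 0.017, and at 0.20, 0.18 and 0.21 also without labelled wild-type replicate 3; none passed. The other carriers that fell numbered 3 with total counts without that library against 7, and those that rose 2 with total counts, 2 with limma-voom and 3 with total counts without that library, against 1. Fetuin relatives that fell went from 3 to 0 with total counts, also without that library. Genes called over the whole table went from 2634 higher and 2051 lower to 5930 and 330 with total counts, and to 5474 and 338 also without that library, and were 2938 and 1433 with upper-quartile scaling. With 5 libraries, the difference in the share of counts of the 10 members ran from -2.69 to -2.46 percentage points. The cause of these shifts was not tested beyond the scaling itself.

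The labels give both groups the same replicate numbers. With the replicate block 6 members fell and 0 rose, as without it, and 2576 genes rose and 1992 fell over the whole table. Same-numbered libraries correlated in their deviations from the group means at 0.11, 0.06 and -0.08, and not every library correlated best with its own number. With 3 libraries in each group, these values cannot show whether same-numbered samples shared a litter, batch or day, which no label states.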
